A study of Homo sapiens with 5 samples.

Results

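The genes described here are 10 members of the transforming growth factor beta (TGF-beta) system: the ligands TGFB1, TGFB2 and INHBA, the latency protein LTBP1, the ligand trap FST, the receptors TGFBR1 and TGFBR2, the intracellular mediators SMAD3 and SMAD7, and the secreted target TGFBI. They were taken from a fixed list of symbols. Every transcript that the GENCODE v44 annotation assigns to them was summed per gene, which gave 10 of the 61220 genes in the tables. Of their 91 annotated transcripts, 84 were in the tables and 51 had at least 1 read.

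RNA came from NCI-H1975 and HCC827, 2 established human cell lines from lung adenocarcinoma, which were grown separately in serum-containing medium to near confluence and received no other agent. Poly(A) RNA was mixed by mass so that HCC827 RNA made up 0, 25, 50, 75 or 100% of it. Each mixture gave 1 nanopore cDNA library, written as NCI-H1975 to HCC827, so that 100:0 and 0:100 are the pure lines and 75:25, 50:50 and 25:75 the mixtures. The labels give NCI-H1975 RNA the synthetic spike-in set called sequins mixA and HCC827 RNA the set called sequins mixB. All mixtures drew on a single RNA preparation of each line, so error between cultures was not measured. Except for the permutation tests, every p-value below refers to the scatter of these 5 libraries about a trend. The trend is straight on the log2 scale, whereas a mixture by mass is straight on the unlogged scale. For genes far apart between the lines, that scatter therefore includes curvature.

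The libraries held 2932250 to 4058751 assigned reads. Sequin reads numbered 5475, 4678, 2830, 1269 and 0 from 100:0 to 0:100, although HCC827 RNA is labelled as carrying a mix too. Lung epithelium markers were present throughout (7 of 7 with at least 10 reads in some library), and their summed level rose from 5616 counts-per-million (CPM) at 100:0 to 15904 at 0:100. Of 7 fibroblast markers, COL1A1 and COL1A2 reached 10 reads in any library, while DCN and THY1 had 0 reads everywhere. The summed fibroblast level was 186 CPM at 100:0 and 7.44 at 0:100. PTPRC, CD3E and LYZ, which define leukocytes, had 0 reads, and endothelial markers summed to 3 to 4 reads a library. The share of mitochondrial reads was 5.64% at 100:0 and 8.85% at 0:100, and the read-weighted transcript length was 2579 and 2180 bases.

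TGF-beta ligands are secreted in a latent form, in which the cleaved propeptide stays wrapped around the growth factor and is tied to the matrix by latent TGF-beta binding proteins such as LTBP1. Once released, often by integrins that pull on the propeptide, the ligand binds the type II receptor TGFBR2, which recruits and phosphorylates the type I receptor TGFBR1. TGFBR1 then phosphorylates SMAD2 and SMAD3, which enter the nucleus with SMAD4, and SMAD7 is an induced inhibitor of the active receptor. In epithelial cells the pathway is known for growth arrest and for the loss of epithelial traits, and TGFBI, a matrix protein, takes its name from its induction by TGF-beta.

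Along the series TGFBI, LTBP1 and TGFBR1 fell as HCC827 RNA replaced NCI-H1975 RNA, and no tested member rose. LTBP1 had 30.0 CPM in the NCI-H1975 library and 1.49 in the HCC827 library, 20.2-fold lower. TGFBI was 2.71-fold lower and TGFBR1 2.32-fold lower in HCC827. TGFB1, TGFB2, TGFBR2, SMAD3 and SMAD7 were present in every library and did not pass the test, and INHBA and FST had too few reads to be tested. CPM are scaled here by the trimmed mean of M values (TMM). The test is the edgeR quasi-likelihood test of the slope, which is the fitted log2 change from 100:0 to 0:100, with Benjamini-Hochberg adjustment over 13492 genes and a threshold of 0.05. With it, 3 of the 8 tested members were called, or 37.5%, where 45.8% of all tested genes were called. The 3 calls were all falls, and 22.3% of all tested genes were called as falling. The median slope of the 8 tested members was 0.0053, and that of all tested genes was -0.035.

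**Figure D1:**
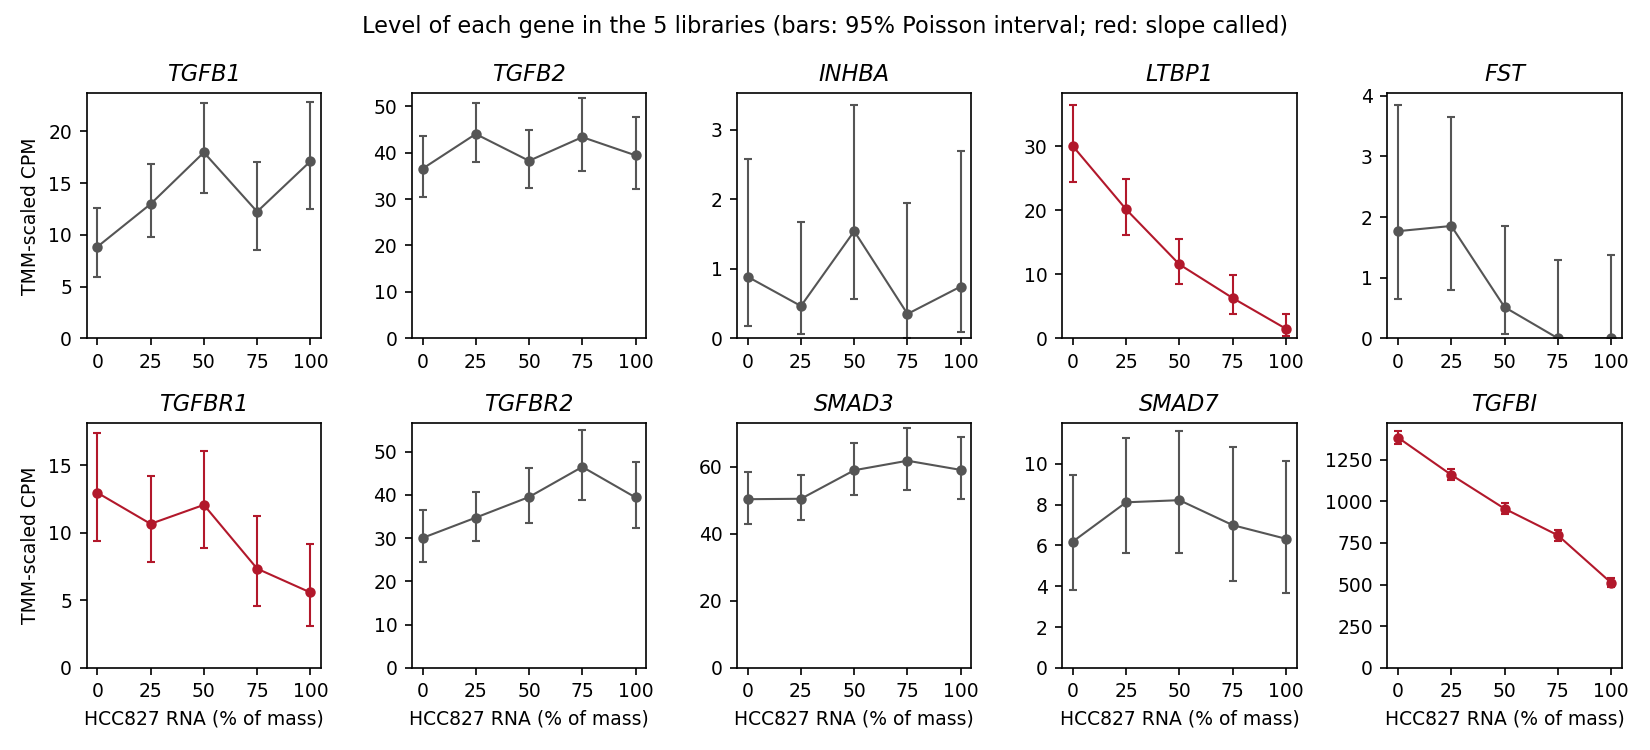
Level of each of the 10 genes (vertical axis, TMM-scaled CPM, each panel from 0) against the HCC827 share of RNA mass (horizontal axis, percent), 1 point per library with its 95% exact Poisson interval. TGFBI and LTBP1 fell at every step, TGFBR1 ended below its start, and the other panels showed no called slope.

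Because they carry differences between transcripts discussed below, 3 stretches of exon are shown, all on the plus strand of GRCh38 and all coding. The TGFB2 cassette exon (chr1:218363334-218363417, 84 bases) is present in TGFB2-201 and absent from TGFB2-202. The TGFBR2 cassette exon (chr3:30623199-30623273, 75 bases) is present in TGFBR2-202 and absent from TGFBR2-201. Another stretch is the start of a TGFBR1 exon (chr9:99132497-99132526), whose 12 capitals belong to TGFBR1-209 and are absent from TGFBR1-202.
TGFB2 cassette exon: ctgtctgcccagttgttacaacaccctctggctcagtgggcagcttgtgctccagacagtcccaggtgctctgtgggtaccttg
TGFBR2 cassette exon: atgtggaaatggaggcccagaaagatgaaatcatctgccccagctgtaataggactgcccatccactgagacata
TGFBR1 longer exon start: GCCCTTTTTCAGtaaagtcatcacctggcc

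TGFB1, the most widely expressed of the TGF-beta ligands, lies on chromosome 19 at 41301587 to 41353922, minus strand. It had 30, 56, 70, 35 and 46 reads, or 8.84, 13.0, 18.0, 12.2 and 17.1 CPM, from 100:0 to 0:100. The lowest value was that of pure NCI-H1975 and the highest that of the 50:50 library, so the values did not run in order. HCC827 had 1.94 times the NCI-H1975 level (95% exact interval 1.20 to 3.18, counting error only), but the slope of 0.69 ± 0.36 (SE, 5 libraries) did not pass (adjusted p = 0.135). It was 0.27 without the 100:0 library and 0.28 with scaling to library totals. One transcript, TGFB1-201, at 41330323 to 41353922, held 97.5% of its reads. Over its whole annotated span the gene overlaps others whose reads rose. On the opposite strand HNRNPUL1 went from 166 reads to 534 (slope 1.87, adjusted p = 1.58e-05) and TMEM91 from 7 to 44 (slope 2.41, adjusted p = 0.0007). On the same strand the long noncoding RNA gene ENSG00000286177 went from 24 to 97 (slope 1.94, adjusted p = 0.00017). Which of them reach into TGFB1-201 was not tested. Whether counting used the strand is not given in the sources used here, and the part of these neighbours in the TGFB1 values was not tested.

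TGFB2, a second ligand of the same receptors, lies on chromosome 1 at 218345336 to 218444619, plus strand. It had 124, 190, 149, 124 and 106 reads, or 36.5, 44.0, 38.2, 43.3 and 39.4 CPM. These levels stayed close together, with a ratio of HCC827 to NCI-H1975 of 1.08 (0.825 to 1.41) and a slope of 0.07 ± 0.19 (SE; adjusted p = 0.789). Per kilobase of transcript TGFB2 averaged 7.64 CPM and TGFB1 5.08. Not divided by length, the means were 40.3 CPM for TGFB2 and 13.8 for TGFB1. The overlapping gene TGFB2-OT1, on the same strand, had 24 to 29 reads a library and no called slope (0.54, adjusted p = 0.282).

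INHBA, which encodes the subunit of activin A, lies on chromosome 7 at 41667168 to 41705834. It had 3, 2, 6, 1 and 2 reads, at most 1.54 CPM. FST, which encodes follistatin, the secreted protein that binds and blocks activin, lies on chromosome 5 at 53480626 to 53487134. It had 6, 8, 2, 0 and 0 reads. All FST reads thus came from the 3 libraries richest in NCI-H1975 RNA, whereas INHBA reads were spread over all 5. Both genes missed the minimum of 10 reads in 2 libraries. Against the 3 reads that a count of 0 allows in the HCC827 library, FST was at least 1.58-fold lower there, but the exact interval of the ratio reached 1.07, so counting error covers it. Two-sided exact permutation tests over the 120 orders of the 5 libraries gave p = 0.0667 for FST and p = 0.8 for INHBA, where the smallest p possible is 0.0167.

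LTBP1 tethers latent TGF-beta to the extracellular matrix and lies on chromosome 2 at 32946953 to 33399509, plus strand. It had 102, 87, 45, 18 and 4 reads. The levels of 30.0, 20.2, 11.5, 6.29 and 1.49 CPM fell at each of the 4 steps. The pure lines were 20.2-fold apart (95% exact interval 7.65 to 75.6), and the slope was -3.40 ± 0.38 (SE; adjusted p = 1.96e-05). A slope on the log2 scale understates the ratio of a gene that is almost absent from 1 line, which is why the log2 ratio of -4.34 is larger in size. Of the 13492 tested genes, 93 (0.689%) had a lower slope.

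TGFBR1, the type I receptor kinase, lies on chromosome 9 at 99104038 to 99154192, plus strand. It had 44, 46, 47, 21 and 15 reads. The levels of 13.0, 10.7, 12.1, 7.34 and 5.58 CPM were highest in the 3 libraries with at most 50% HCC827 RNA and lowest in the other two. NCI-H1975 was 2.32-fold above HCC827 (95% exact interval 1.27 to 4.50), and the slope was -1.07 ± 0.38 (SE; adjusted p = 0.0353). This call did not hold throughout: the adjusted p was 0.101 with the DESeq2 Wald test, and it was 0.0788, 0.0540, 0.0906 and 0.244 without the 100:0, 75:25, 25:75 and 0:100 library.

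TGFBR2, the type II receptor that binds the ligand first, lies on chromosome 3 at 30606601 to 30694142, plus strand. It had 102, 150, 154, 133 and 106 reads. The levels of 30.0, 34.7, 39.5, 46.5 and 39.4 CPM were lowest in pure NCI-H1975 and highest in the 25:75 library. The HCC827 level was 1.31 times that of NCI-H1975 (0.990 to 1.74), and the slope of 0.49 ± 0.20 (SE) missed the threshold (adjusted p = 0.0679). It passed without the 0:100 library (slope 0.83, adjusted p = 0.0203) and when only protein-coding transcripts were summed (0.56, adjusted p = 0.0312). The slopes of the receptor pair thus had opposite signs, and only that of TGFBR1 was called with all 5 libraries and transcripts.

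SMAD3, the transcription factor activated by TGFBR1, lies on chromosome 15 at 67063763 to 67195173, plus strand. It had 171, 218, 230, 177 and 159 reads, or 50.4, 50.5, 59.0, 61.9 and 59.1 CPM. The ratio of HCC827 to NCI-H1975 was 1.17 (0.940 to 1.47), with a slope of 0.31 ± 0.16 (SE; adjusted p = 0.134). SMAD7, the inhibitory SMAD that TGF-beta itself induces, lies on chromosome 18 at 48919853 to 48950965, minus strand. It had 21, 35, 32, 20 and 17 reads, or 6.19, 8.11, 8.21, 6.99 and 6.32 CPM. The pure lines had nearly the same SMAD7 level, at a ratio of 1.02 with an interval of 0.506 to 2.03, so a difference of 2-fold was within counting error. Its slope was -0.06 ± 0.43 (SE; adjusted p = 0.922).

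TGFBI, the secreted matrix protein also called keratoepithelin, lies on chromosome 5 at 136028988 to 136063818, plus strand. It had 4693, 5001, 3724, 2277 and 1374 reads. The levels of 1383, 1159, 956, 796 and 511 CPM fell at every step, and no 95% Poisson intervals of neighbouring libraries overlapped. NCI-H1975 was 2.71-fold above HCC827 (95% exact interval 2.55 to 2.88), and the slope was -1.35 ± 0.13 (SE; adjusted p = 9.66e-06). In bulk RNA, fewer cells with a transcript and less of it per cell cannot be told apart. TGFBI was by far the most abundant of the 10 genes, with a mean of 432 CPM per kilobase. SMAD3 followed at 10.3, TGFBR2 at 8.27, TGFB2 at 7.64, TGFB1 at 5.08, LTBP1 at 2.63, SMAD7 at 1.67 and TGFBR1 at 1.61. FST (0.353) and INHBA (0.152) were last. A long read counts 1 molecule whatever its length, and on mean CPM not divided by length 3 pairs of neighbours change places: TGFB2 (40.3) stood above TGFBR2 (38.0), LTBP1 (13.9) above TGFB1 (13.8) and TGFBR1 (9.72) above SMAD7 (7.16). In the order per kilobase TGFBI stood clear of SMAD3, TGFB2 (6.92 to 8.34 over the 5 libraries) of TGFB1 (3.25 to 6.60), and TGFBR1 of FST, and the ranges of all other neighbours overlapped.

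**Figure D2:**
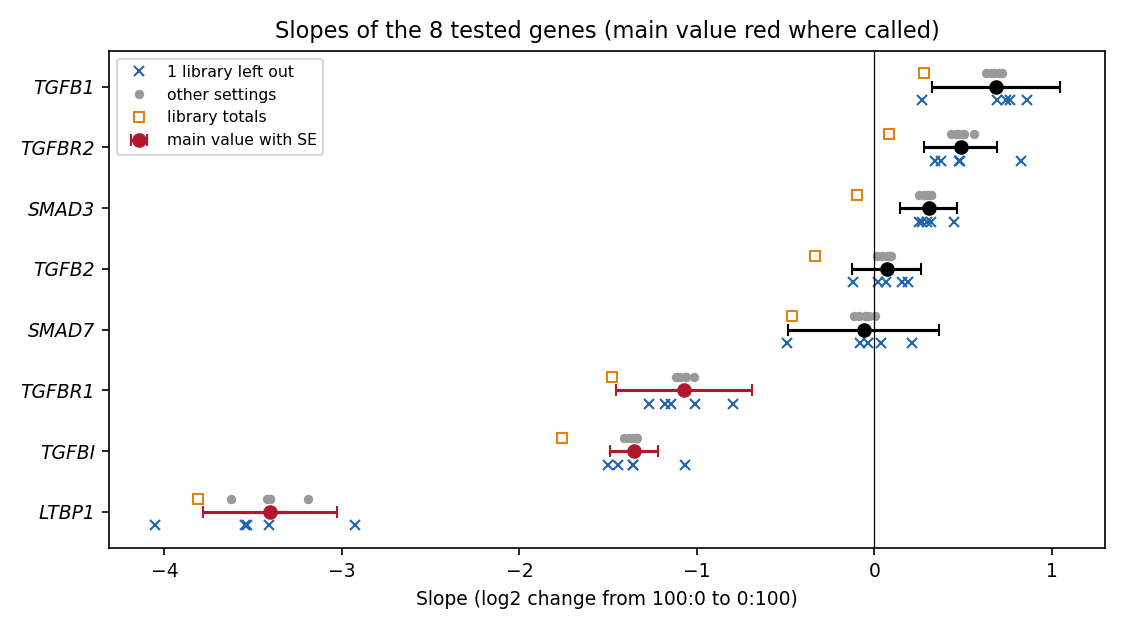
Slope of the 8 tested genes (horizontal axis, log2 change from 100:0 to 0:100) with its SE, beside the slopes with 1 library left out, under other settings and with scaling to library totals. LTBP1, TGFBI and TGFBR1 stayed below 0 in every setting drawn, while SMAD3 and TGFB2 moved below 0 with library totals.

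Counted by size, NCI-H1975 and HCC827 differed at least 2-fold in 3 of the 8 tested members (TGFBI, TGFBR1 and LTBP1), all 3 of them lower in HCC827. Over the 13488 tested genes with a ratio, 34.6% were at least 2-fold apart and 18.4% were at least 2-fold lower in HCC827. TGFBI and LTBP1 had values in order over the 5 libraries, 2 of the 8 tested members, and 28.5% of tested genes had values in order. Long transcripts tended to fall along the series: genes of 4.5 kb or longer had a median slope of -0.30, with 29.9% called as falling and 13.6% as rising. Genes under 2 kb had a median slope of 0.24. LTBP1 (5290 bases) and TGFBR1 (6034) belong to the long group, as do SMAD3, TGFB2 and TGFBR2, whose slopes were above 0 with TMM scaling, although those of SMAD3 and TGFB2 turned to -0.10 and -0.34 with scaling to library totals. TGFBI (2223 bases) belongs to the group from 2 kb to 4.5 kb, whose median was -0.051. The part of transcript length in the members' slopes was not tested.

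The mixed libraries show how evenly each called gene passed from the level of one line to that of the other. A library's position is the percent of the way from the NCI-H1975 level to the HCC827 level, so an even mixture gives 25, 50 and 75% at 75:25, 50:50 and 25:75. TGFBI stood at 25.7% ± 2.58, 49.0% ± 2.29 and 67.3% ± 2.32 (SE from counting). LTBP1 stood at 34.6% ± 10.2, 64.8% ± 7.26 and 83.2% ± 5.89. Over the 2121 genes of all kinds used for this measure, each with a 2-fold or larger difference between the lines and at least 50 reads on average, the medians were 27.0, 46.7 and 70.9%. Measured in its counting SEs, TGFBI lay -1.54 to 1.00 from these medians. LTBP1 lay nearer to HCC827 by 2.49 of its SEs at 50:50 and 2.09 at 25:75, and within counting error of the median at 75:25 (0.751 of its SE). With few reads, TGFBR1 stood at 31.2% ± 28.7, 12.2% ± 33.4 and 76.1% ± 27.0, too wide to place.

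**Figure D3:**
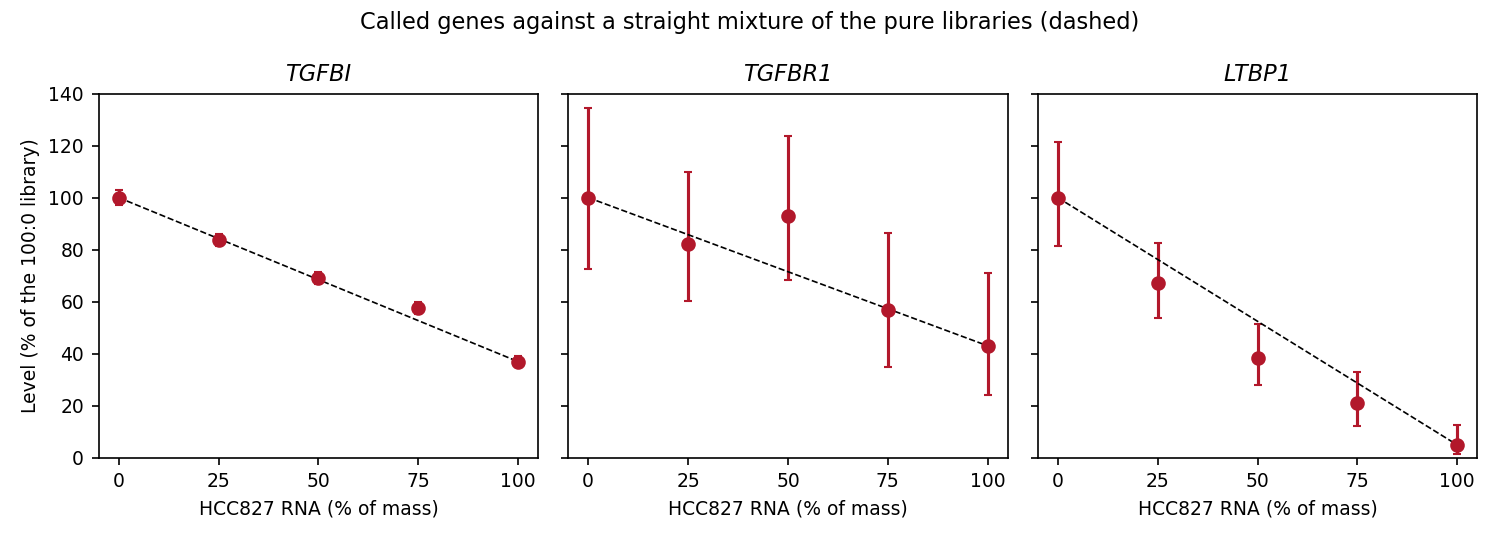
Level of the 3 called genes as a percent of the 100:0 library (vertical axis) against the HCC827 share of RNA mass (horizontal axis, percent), with 95% exact Poisson intervals; the dashed line joins the pure libraries. TGFBI reached 101% of the line at 50:50 and 109% at 25:75, while LTBP1 lay below it at 73.2% and 72.9%.

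Long reads assign counts to transcripts. Of 24 member transcripts with enough reads, 11 were called along the series, all falling, and 33.6% of all tested transcripts were called. They belonged to TGFBI (7 of 8, slopes from -1.76 to -1.32) and LTBP1 (4 of 4, from -3.74 to -2.57). The TGFBI transcript that was not called, TGFBI-215, had 62 reads and a slope of -0.78 (adjusted p = 0.349). TGFBR1 was called as a gene but not in either tested transcript: TGFBR1-202 had a slope of -1.30 (adjusted p = 0.0571) and TGFBR1-209 one of -1.21 (adjusted p = 0.132).

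Full-length TGFBI-201, with 17 exons, fell from 596 to 232 CPM (slope -1.32 ± 0.145 SE, adjusted p = 1.79e-06). TGFBI-213, annotated with 9 exons that begin within the gene at 136049516, fell from 572 to 202 CPM (slope -1.46 ± 0.15 SE, adjusted p = 1.12e-06). The 2 transcripts took 43.6% and 41.2% of TGFBI reads. The share of TGFBI-213 among the reads of both was 49.0, 49.6, 47.8, 48.2 and 46.5% along the series, so the short form stayed near an equal share. A truncated cDNA and a transcript that starts inside the gene cannot be told apart in these counts. Further called TGFBI transcripts were the retained-intron forms TGFBI-205 (slope -1.36) and TGFBI-204 (-1.57), the decay-annotated TGFBI-206 (-1.76), TGFBI-207 (-1.65) and TGFBI-203 (-1.70).

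LTBP1 is known to be made from an upstream start, giving a long protein, and from downstream starts, giving a short one. In the annotation, LTBP1-203 starts at 32946953, and the first of the downstream forms starts 187644 bases further on. The downstream forms fell along the series, with slopes of -3.36 for LTBP1-202, -3.62 for LTBP1-204 and -3.74 for LTBP1-207, and LTBP1-203 fell with a slope of -2.57 (adjusted p from 0.00023 to 0.0033). Reads of LTBP1-203 numbered 25, 19, 15, 8 and 1, which was 25.8, 23.2, 33.3, 47.1 and 25.0% of the reads of these starts. Over all libraries the share was 27.8% (95% exact binomial interval 22.2 to 33.8, 245 reads), and the interval of each library took in that value. A truncated cDNA of LTBP1-203 and a downstream form cannot be told apart in these counts. Counts assigned to upstream and to downstream forms were both lower in HCC827.

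Isoform usage was tested in the 6 members with at least 2 tested transcripts (LTBP1, SMAD3, TGFB2, TGFBI, TGFBR1 and TGFBR2), using the edgeR test for differential splicing with Simes p-values. It called 0 of them, with 0 at an unadjusted p under 0.05 (lowest 0.614, for LTBP1), and 0.416% of all tested genes were called. The edgeR gene-level F test also called 0. Exon shares here and for TGFBR1 below rest on counts estimated per transcript, not on reads seen to cross the exon. A truncated read that stops short of the exon cannot tell the forms apart, and the intervals cover counting error only. By these counts, TGFB2 included the cassette exon shown above in 33.9, 35.8, 33.8, 35.7 and 32.3% of the reads of TGFB2-201 and TGFB2-202. Its overall share of 34.5% (30.8 to 38.3, 641 reads) lay inside the interval of every library. The exon adds to the propeptide part of the protein. TGFBR2 included its cassette exon, which lengthens the extracellular part of the receptor, in 45.7, 48.9, 57.2, 41.2 and 45.6% of the reads of TGFBR2-201 and TGFBR2-202. The share over all libraries was 48.2% (44.1 to 52.3, 585 reads), with the 50:50 library at 57.2% (48.5 to 65.6) the only one whose interval left it out.

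The longer TGFBR1 exon, which begins 12 bases earlier, was used in 37.8, 45.9, 34.3, 33.3 and 50.0% of the reads of TGFBR1-202 and TGFBR1-209, and in 39.7% over all libraries (31.4 to 48.4, 136 reads). The remaining form, TGFBR1-201, leaves out the whole exon of 231 bases and held 19.0% (13.4 to 25.8) of the reads of the 3 forms. Every stretch has a length divisible by 3, so the reading frame continues past it. SMAD3-201 held 77.7% of SMAD3 reads, and the retained-intron SMAD3-207 held 21.3%, with slopes of 0.24 and 0.25. SMAD7-201 held 93.6%, FST-201 81.3% and INHBA-201 78.6% of the reads of their genes.

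**Figure D4:**
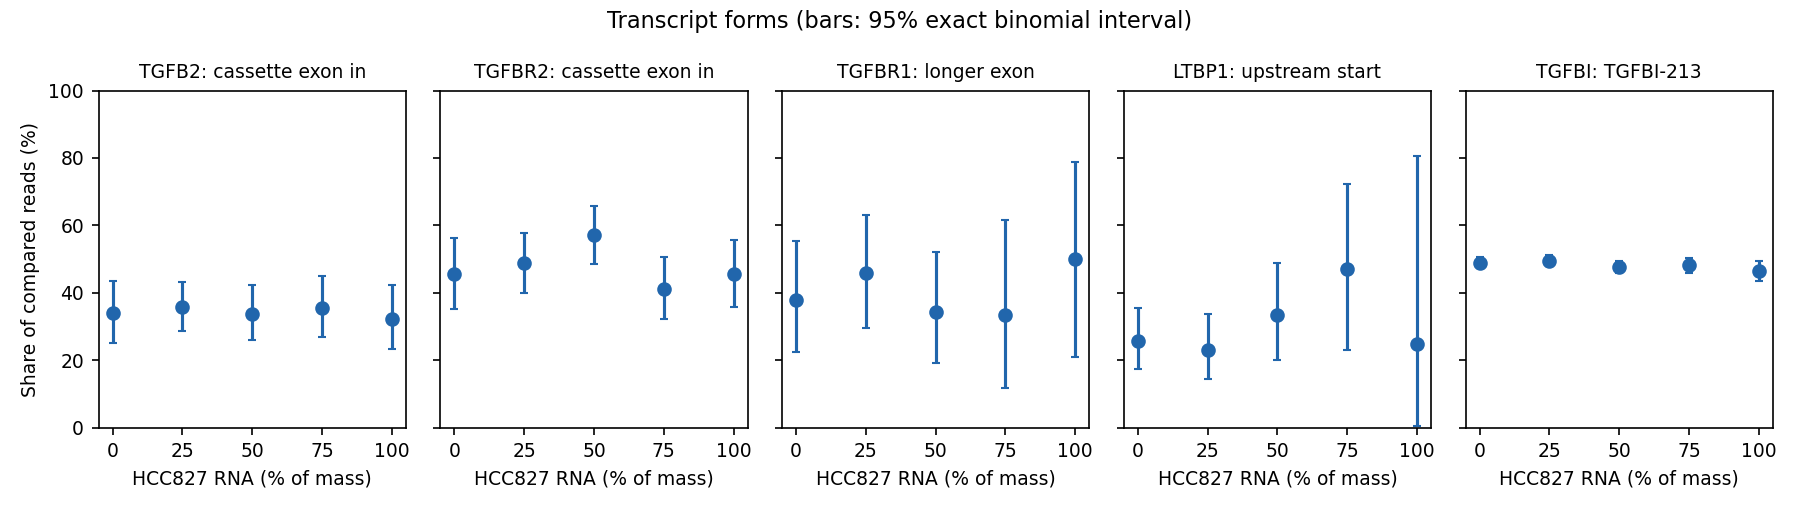
Share of reads assigned to a given form (vertical axis, percent, 0 to 100) against the HCC827 share of RNA mass (horizontal axis, percent), with 95% exact binomial intervals, for 5 pairs or sets of transcripts. TGFB2 stayed between 32.3 and 35.8% and TGFBI between 46.5 and 49.6%, and the intervals widened for TGFBR1 and LTBP1 where reads were few.

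The 250 bases before the start are shown for LTBP1-203 (chr2:32946703-32946952) and TGFBI-201 (chr5:136028738-136028987), the members with the largest called slopes, on the plus strand of GRCh38.p14 from RefSeq, 5′ to 3′. SMAD proteins are known to bind CAGAC, read GTCTG on the other strand, and GC-rich motifs such as GGCGC, read GCGCC on the other strand. Capitals mark these letters on either strand, and neighbouring matches can overlap.
LTBP1-203 upstream window: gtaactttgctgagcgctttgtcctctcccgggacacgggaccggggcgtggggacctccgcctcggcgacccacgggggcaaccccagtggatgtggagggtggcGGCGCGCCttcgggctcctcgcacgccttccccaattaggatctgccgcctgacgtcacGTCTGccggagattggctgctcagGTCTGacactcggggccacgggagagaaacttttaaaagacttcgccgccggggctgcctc
TGFBI-201 upstream window: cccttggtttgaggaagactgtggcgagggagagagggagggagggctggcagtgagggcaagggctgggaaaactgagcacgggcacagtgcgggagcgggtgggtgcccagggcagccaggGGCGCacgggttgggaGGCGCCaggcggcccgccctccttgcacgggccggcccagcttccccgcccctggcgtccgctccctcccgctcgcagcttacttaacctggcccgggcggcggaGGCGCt

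A script found 2 matches of CAGAC and 2 of GGCGC before LTBP1-203, and 0 and 4 before TGFBI-201. The window before the downstream start of LTBP1-207 held 1 and 0, and that before TGFBR1-202 held 1 and 1. Among the members without a called slope, TGFB2 and SMAD7 had 2 matches of CAGAC each and SMAD3 had 7 of GGCGC, whereas TGFBR2 and INHBA had neither motif. Matches therefore occurred in members with and without a slope. Over 35116 windows of the same length in the RefSeq table, 38.0% held CAGAC and 44.5% held GGCGC on either strand. Such a match describes the letters and is not evidence of binding.

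Around these members, most other pathway genes with a called slope were lower in HCC827. Of 76 further genes on lists of ligands, latency proteins, receptors, SMADs, inhibitors and targets, 59 were tested, 35 fell and 8 rose, against 40 and 5 with scaling to library totals and 24 and 6 without the 0:100 library. That is 72.9% called, where 45.8% of all tested genes were, with a median slope of -0.99. The lists were drawn up with earlier results of these data known, so they are a description and no independent support. Of the 7 tested further ligands, INHBB rose from 0 to 33 reads (slope 3.79 ± 0.71 SE, adjusted p = 0.0008). INHBB encodes another activin subunit, so it was detected in HCC827 while INHBA stayed at 1 to 6 reads. GDF15, a stress-induced member of the superfamily, rose with a slope of 0.59 (adjusted p = 0.0024), a call that was lost with library totals (0.18, adjusted p = 0.252). TGFB3 (-2.05, adjusted p = 0.0092) and BMP2 (-1.41, adjusted p = 0.0078) fell, with adjusted p of 0.0874 for TGFB3 without the 0:100 library and 0.0831 for BMP2 without the 100:0 library. MSTN, NODAL, LEFTY1, LEFTY2 and BMP7 had at most 1 read in any library.

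Among proteins of latency and activation, 5 of 8 tested fell and 1 rose, or 75% called, where 45.8% of all tested genes were. THBS1, which encodes thrombospondin, an activator of latent TGF-beta, went from 265 to 15 reads (slope -2.88, adjusted p = 2.72e-05). LTBP2, another matrix protein of the LTBP1 family, fell with a slope of -2.08 (adjusted p = 8.89e-05), and LTBP3 rose with one of 0.42 (adjusted p = 0.0313), which was 0.012 with library totals, 0.21 without the 0:100 library (adjusted p = 0.426) and 0.36 without the 100:0 library (adjusted p = 0.135), and had an adjusted p of 0.0717 with the DESeq2 Wald test. The integrin subunits ITGAV, ITGB6 and ITGB8, which form receptors that release latent TGF-beta, had slopes of -0.74, -1.26 and -1.59 and were all called (adjusted p of 0.00097, 0.00063 and 0.0048), ITGB8 not without the 0:100 library (adjusted p = 0.0535). FURIN, the protease that cleaves the propeptide (-0.33), and LTBP4 (-0.60) were not called, and LRRC32 and NRROS, which hold latent TGF-beta on cell surfaces, had at most 3 reads.

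Of the 8 tested further receptors and coreceptors, 3 fell and 0 rose, or 37.5% called, below the share of all tested genes. With the DESeq2 Wald test, or without the 0:100 library, 1 of them was called. ENG, the coreceptor endoglin, went from 356 to 56 reads (slope -2.00, adjusted p = 1.36e-05). The BMP receptors BMPR1A (-1.01, adjusted p = 0.0271) and BMPR2 (-0.70, adjusted p = 0.0276) also fell. Of the 5 tested further SMADs, 2 fell and 1 rose, or 60% called, where 45.8% of all tested genes were. SMAD2 (-0.11) and SMAD4 (-0.31), the partners of SMAD3, were not called. SMAD1 (-0.83, adjusted p = 0.0421) and SMAD5 (-0.72, adjusted p = 0.0205), which carry BMP signals, fell. SMAD9, which carries BMP signals too, had at most 9 reads in a library and was not tested. Without the 0:100 library the adjusted p of BMPR1A, BMPR2, SMAD1 and SMAD5 was 0.187, 0.297, 0.424 and 0.262, and neither SMAD1 nor SMAD5 was called without the 75:25 or the 25:75 library (adjusted p from 0.0525 to 0.0653). SMAD6, the inhibitory relative of SMAD7, rose from 9 to 33 reads (slope 2.55, adjusted p = 0.0011).

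Among inhibitors and binding proteins, 7 of 12 tested fell and 1 rose, or 66.7% called, where 45.8% of all tested genes were. FSTL1, a secreted follistatin-like protein, had 584, 190, 78, 118 and 56 reads (slope -2.98, adjusted p = 0.00074), a drop that lay mostly between the 100:0 and 75:25 libraries. Without the 100:0 library its slope was -0.90 (adjusted p = 0.0828). FSTL3, which like FST binds activin, fell with a slope of -2.00 (adjusted p = 1.39e-05), and NOG, the BMP antagonist noggin, with one of -2.15 (adjusted p = 0.0295), or -1.04 without the 0:100 library (adjusted p = 0.281). The NOG call was also lost with limma (-1.53, adjusted p = 0.146) and without the 75:25 or the 25:75 library (adjusted p = 0.0945 and 0.0696). BAMBI, a decoy receptor without a kinase, rose (1.31, adjusted p = 0.0311), with an adjusted p of 0.111 under library totals and 0.464 without the 0:100 library. Its adjusted p was 0.110 with the DESeq2 Wald test, and 0.0732 and 0.0631 without the 100:0 and the 75:25 library. CHRD, GREM1 and DCN had at most 1 read in any library.

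All 19 tested textbook targets were called, 16 falling and 3 rising, with a median slope of -1.67. Of all tested genes, 45.8% were called and 22.3% were called as falling. Without the 0:100 library 14 fell and 3 rose, TAGLN (adjusted p = 0.329) and ZEB1 (adjusted p = 0.0652) losing their calls, and 15 fell without the 75:25 library or with the DESeq2 Wald test. VIM, an intermediate filament protein of mesenchymal cells, went from 3828 to 130 reads (slope -3.62, adjusted p = 0.0003). COL1A1 fell with a slope of -2.91 (adjusted p = 0.00022). Without the 0:100 library both were still called, with slopes of -2.17 for VIM and -1.87 for COL1A1. CDH2, a mesenchymal cadherin, had at most 1 read. The 3 that rose were ID2 (2.61, adjusted p = 6.87e-05), ID1 (1.57, adjusted p = 1.23e-05) and ID3 (1.08, or 0.67 with library totals, adjusted p = 0.00068 and 0.0114), which encode inhibitors of helix-loop-helix factors and are known as BMP targets that TGF-beta can repress in epithelial cells. Most lung epithelium markers moved the other way, with 6 of 7 called as rising, where 3169 of all 13492 tested genes were. EPCAM was not called (slope 0.02). COL1A1 is also a fibroblast marker, as is COL1A2, which went from 96 to 0 reads (slope -3.67, adjusted p = 0.00031). VIM is expressed by mesenchymal cells generally, and the fibroblast markers DCN and THY1 were at 0. Many of these targets respond to other pathways too, and their link to the level of any member was not tested.

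**Figure D5:**
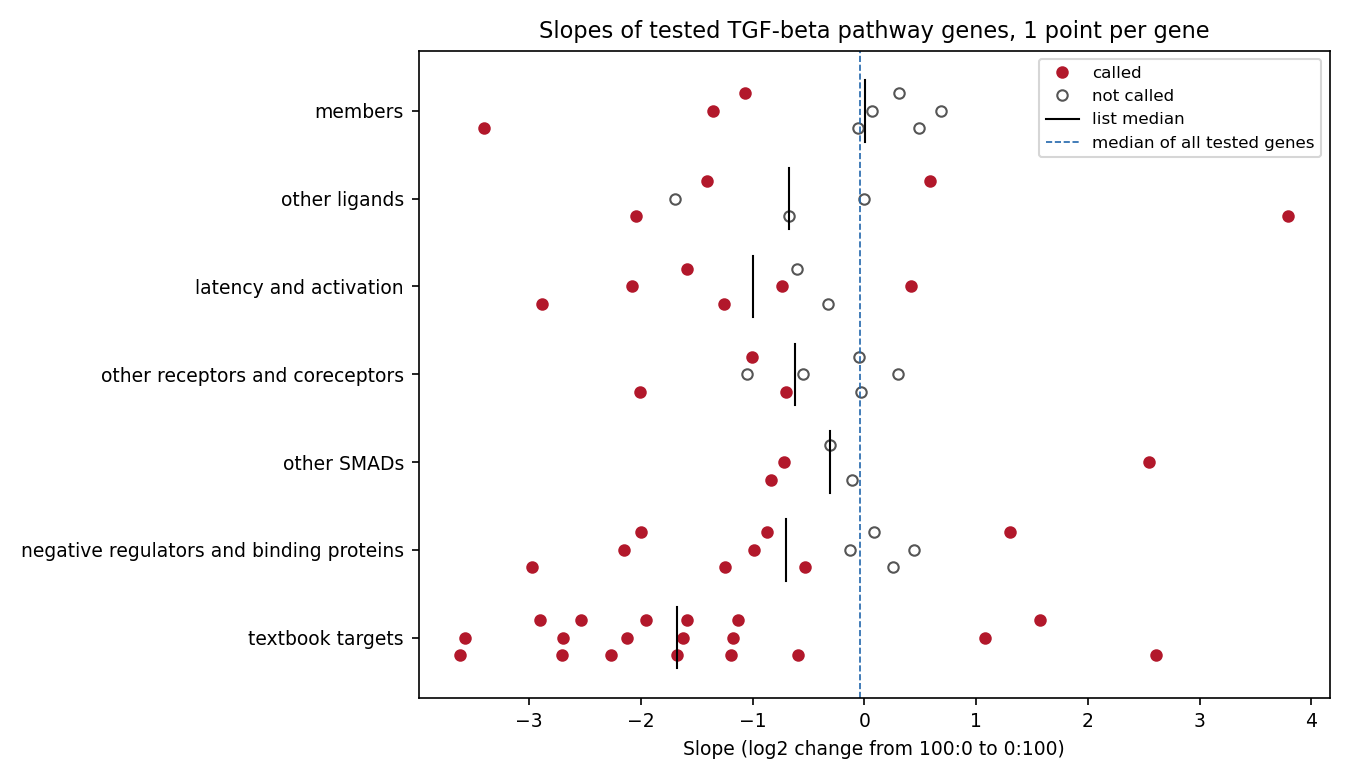
Slopes of tested genes (horizontal axis, log2 change from 100:0 to 0:100), 1 point per gene, for the 8 tested members and 6 lists of other pathway genes; filled points were called, black bars are list medians and the dashed line is the median of all tested genes. Textbook targets lie furthest to the left, with a median of -1.67, and the members centre on 0.0053.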

How the data were processed

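For each library the authors deposited an estimated count of reads for every transcript, with its length in bases; the values are unscaled. Per the submitters' processing notes, GRCh38, minimap2 2.24 and Salmon 1.9.0 were used; the annotation release is not given in the sources used here. Counts were rounded to whole reads (2 values were not whole), 161 repeated identifiers were summed, and 224076 of 227751 human transcripts, with 98.5 to 98.7% of human reads per library, were assigned to genes with GENCODE 44. PCR copies count as separate reads, so intervals (95%) and the floor of 3 reads for a count of 0 cover counting error only.

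Slopes on the HCC827 mass fraction were fitted with edgeR 4.0.16 (R 4.3.3; quasi-likelihood, TMM) for genes with at least 10 reads in at least 2 libraries, with Benjamini-Hochberg adjustment over all features tested. Because each ratio had 1 library, the spread about the trend was estimated for each gene over all libraries together. Alternatives were DESeq2 1.42.0, limma 3.58.1, other scalings, read filters, protein-coding transcripts and leaving out libraries; the permutation tests and the split by length were added after seeing the data. In simulated data 200 of 13492 genes were changed, by 2-fold or 4-fold, as many up as down. The fit recovered 138 of them, with 6 false calls among 144. In the real libraries 45.8% of tested genes were called, so recovery and false calls at that share were not tested.

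The members and lists were chosen with earlier results of these data known. All 10 members are named. In each other list, the text names the called genes with the largest slopes, up to 3 per direction, and those with at most 3 reads everywhere. A gene that this rule selects is not reported here. ITGAV, ITGB6, FURIN, LTBP4, SMAD2, SMAD4, SMAD9, TAGLN, ZEB1, EPCAM and genes that overlap a member were named beyond this rule after values were seen. For each member the text names the transcript with most reads and each called transcript; TGFBI-215, SMAD3-207, TGFBR1-209, TGFBR1-201, TGFB2-201 and TGFBR2-202 were added. Promoter windows are RefSeq sequence of GRCh38.p14, found for all 10 members.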

Additional observations from a re-analysis of the deposited data

How the results depend on the processing

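No paired analysis was possible because each ratio had 1 library. Of 168 values recomputed under alternatives, 148 kept their direction and side of the threshold or stayed within the allowed range. For counts that range was wide. It took in 30 called pathway genes against 43, and 2 or 4 called members against 3, so the 148 include changed sets of members. TGFBI and LTBP1 were called falling wherever they were tested; LTBP1 was not testable with 10 reads in every library. Called members numbered 2 without the 100:0, 75:25 or 25:75 library and 2 with DESeq2, each time without TGFBR1. They numbered 3 without the 0:100 library, where TGFBR2 was called in place of TGFBR1, and 4 with protein-coding transcripts only. With no read filter FST was called as well. Called member transcripts numbered 11, but 4 with 10 reads in every library and 7 to 11 with 1 library left out, lowest without the 0:100 library. Members with a 2-fold or larger difference numbered 3, and 1 at 4-fold.

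Scaling to library totals moved the median slope of all genes from -0.035 to -0.44 and the share of rising genes among calls from 51.3% to 26.3%. It turned the slope of TGFB2 to -0.34 and that of SMAD3 to -0.10, neither called. With 1 library left out, the slope of TGFB2 ran from -0.12 to 0.19 and that of SMAD7 from -0.49 to 0.22, and protein-coding transcripts gave SMAD7 0.0055. Called pathway genes numbered 43, and 30 to 42 with 1 library left out. All genes called numbered 4067 without the 0:100 library, against 6175. Fewer features or libraries enter some of these alternatives; for the others the cause was not tested. Depth limits INHBA and FST, which had at most 8 reads in a library.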

Other observations

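The genes whose levels over the 5 libraries were most like those of 2 members were listed by the smallest root mean square difference of centred log2(CPM + 1), among 8056 genes with at least 50 reads on average. For LTBP1 they were PRAF2 (0.103), GJA1 (0.156) and ZNF432 (0.158). GJA1 encodes a gap junction protein and had 218, 177, 129, 46 and 13 reads. For TGFBI they were RDH11 (0.025), CALU (0.026) and SLMAP (0.041). CALU, a calcium-binding protein of the secretory pathway, had 1148, 1229, 923, 536 and 329 reads. The libraries share 2 RNA preparations, so genes with a like ratio between the lines have like patterns by construction.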
